A study of Arabidopsis thaliana with 75 samples.

Results

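Transcript levels of 54 genes of the cell cycle and of DNA replication were followed in Arabidopsis thaliana leaves after cutting. The genes were listed by family and name, with no measured value in the rule, though earlier results of these data were known when the list was made. They were 10 D-type, 7 A-type and 9 B-type cyclins, 5 cyclin-dependent kinases (CDKs), 9 CDK inhibitors (KRP1 to KRP7, SIM and SMR1), 5 transcription factors (E2FA, E2FB, E2FC, MYB3R1 and MYB3R4), the late mitotic genes KNOLLE and CDC20.1, and the 7 replication genes PCNA1 and MCM2 to MCM7. Together they made 54 of the 32833 genes in the deposited table, and all 54 passed the filter on low counts and were tested.

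The study cut the 8th leaf of 4-week-old plants with a steel blade and sequenced messenger RNA (mRNA) of the leaves. The libraries labelled gpat4 gpat8, after GPAT4 and GPAT8, acyltransferases of cutin synthesis, cover 7 times, 0h, 2h, 4h and 12h after the cut and then 1D, 2D and 3D, where h stands for hours and D for days. Those labelled rbohE, after an NADPH oxidase gene, cover 6 times, which are 0h, 2h and 4h, then 1D, 3D and 5D. Wild type (WT) covers 12 times: 0h, 1h, 2h and 4h, later 6h, 12h and 18h, and each day, 1D to 5D. With 3 libraries in each of the 25 groups there were 75 in all. Every library, 0h included, carries the treatment label "wound", and alleles, accession, light regime and the number of leaves pooled in a library are not given in the sources used here. Nothing says that the 3 libraries of a group came from separate plants, so p-values measure the spread between these libraries, which may be technical. Uncut leaves at the later times were not analysed here, and time after the cut and time of day cannot be told apart.

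Cells pass from growth (G1) into DNA synthesis (S phase), a second gap (G2) and mitosis. D-type cyclins with CDKA act at the entry into S phase, where E2F transcription factors switch on replication genes such as those for the MCM helicase, which opens the DNA, and for PCNA, the clamp that holds DNA polymerase. A-type cyclins act from S phase into G2, and B-type cyclins with the plant CDKB kinases act at the entry into mitosis, where MYB3R factors act through a short promoter element, the MSA core. KRP and SIM-related proteins inhibit CDKs, and most cells of a grown leaf have left division and hold replicated but undivided nuclei. Levels are given as CPM, counts scaled to a common library total, and they come from whole leaves, in which fewer cells of a type and less RNA per cell cannot be told apart.

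Library totals lay between 46045188 and 67376782 estimated counts (median 61143105), and correlations of log2 CPM between replicates of a group lay between 0.980 and 0.997. Mesophyll markers marked every group as green leaf, with a summed level of 7374 to 10880 CPM in WT at 0h. GPAT4 was lower in the libraries labelled gpat4 gpat8, with 86.9, 87.6 and 78.7 CPM at 2h against 259, 255 and 242 CPM in WT at 2h. GPAT8 went against that label, with 22, 23 and 19.9 CPM at 4h against 8.94, 10.5 and 11.6 CPM in WT at 4h. RBOHE was lower in the libraries labelled rbohE at 3D and 5D, with 2.88, 2.68 and 2.64 CPM at 3D against 46.8, 41.6 and 48.7 CPM in WT at 3D, and was not called at 1D. At 0h, 2h and 4h it went against the label, being called higher, with 0.606, 0.532 and 1.07 CPM at 0h against 0.229, 0.197 and 0.165 CPM in WT at 0h. The names gpat4 gpat8 and rbohE therefore stand only for libraries so labelled. An M of unstated meaning stands in the descriptions of 9 libraries, those of gpat4 gpat8 sampled at 0h, at 12h and at 1D, and plastid genes made up 0.943% to 2.57% of their counts, against 0.212% to 0.878% in the others. CCA1, a morning gene of the circadian clock, also set groups apart: it was at 331, 254 and 282 CPM in gpat4 gpat8 at 0h, at 4.1, 2.55 and 4.38 CPM in rbohE at 0h, and at 12.6, 8.24 and 9.81 CPM in WT at 0h. Within WT it stood at 178, 156 and 141 CPM at 1h, at 82.4, 86.2 and 83.5 CPM at 2h and at 67.8, 71.9 and 74.2 CPM at 12h, and between 2.88 and 34.5 CPM at the other times. The part of the time of day in the results was not tested.

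A gene was called when its adjusted p was under 0.05 and its log2 fold change was at least 1 in size. Every p below is from edgeR's quasi-likelihood test with Benjamini-Hochberg adjustment over all 23475 genes tested, and log2 fold changes stand with their standard errors (SE). Low genes had a floor, set at 3 sequenced fragments, which came to 8 estimated counts in each library. Where all 3 libraries of a group were at or under it, a fold change is given only as a bound against that floor.

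Wounded WT leaves went through a fall of replication genes within hours, a recovery by 1D and a rise of mitotic genes at 2D. At 1h, 14 of the 54 genes were called higher than at 0h and 12 lower, against 16.3% of all genes tested called higher and 17.2% called lower. At 6h the count was 2 higher and 18 lower, with 9.83% and 8.69% of all genes. At 2D it was 31 higher and 3 lower, with 10.7% and 8.68% of all genes, and the members' median log2 fold change was 1.60, or 1.53 where bounds replaced the values of genes at the floor. Intermediate counts, higher and lower, were 6 and 12 at 2h (18.2% and 20.0% of all genes), 3 and 14 at 4h (13.9% and 13.1%), 4 and 1 at 12h (9.68% and 6.82%), 3 and 4 at 18h (8.41% and 8.11%), and 11 and 4 at 1D (9.38% and 8.20%). The count then went to 24 and 2 at 3D (10.6% and 7.34%), 21 and 2 at 4D (9.43% and 7.83%) and 16 and 7 at 5D (9.69% and 9.53%). In all, 43 of the 54 genes were called at 1 or more times, or 79.6%, beside 64.2% of all genes tested, and 17 of them in both directions at different times, or 31.5%, beside 9.78%. The heat map of WT changes shows these waves by role.

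**Figure D1:**
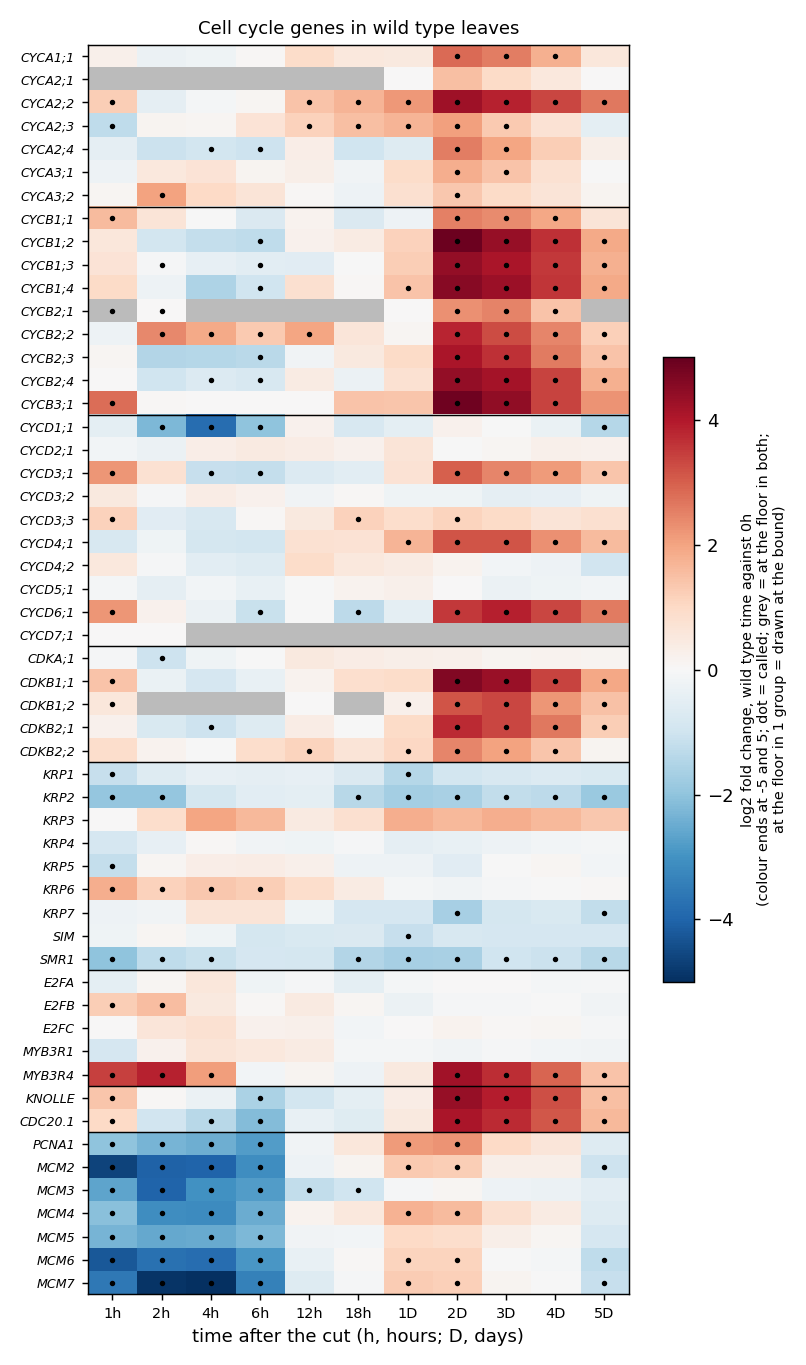
Log2 fold changes of the 54 genes in WT leaves at each time after the cut against 0h, with genes in rows ordered by role, times in columns and the colour scale in log2 units. Dots mark called changes, grey cells mark genes at the floor in both groups, and a bound is drawn where 1 group was at the floor. The 7 replication genes are low at 1h to 6h and the 9 B-type cyclins high at 2D to 4D.

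All 7 replication genes were lower than at 0h at 1h, 2h, 4h and 6h, with role medians of -2.64, -3.74, -3.13 and -2.80 on the log2 scale. MCM2 (AT1G44900), a subunit of the MCM helicase, was at 1.66, 2.13 and 8.51 CPM at 0h. It then read 0.196, 0.118 and 0.184 CPM at 1h, 0, 0.384 and 0.341 CPM at 2h, 0.182, 0.353 and 0.218 CPM at 4h, and 0.472, 0.413 and 0.561 CPM at 6h. Every library of these 4 times lay below every library of 0h, of which the third was set apart by its high value. The change at 1h was a log2 fold change of -4.62 ± 0.55 (SE, adjusted p = 1.5e-10). MCM7 (AT4G02060), another subunit of the same ring, was at 0, 0 and 0.172 CPM at 4h, against 1.51, 1.66 and 7.83 CPM at 0h (log2 fold change -5.94 ± 0.61, adjusted p = 1.4e-12). The groups did not overlap. MCM3 (AT5G46280), whose 0h libraries lay closer together, was at 0.65, 0.844 and 0.903 CPM at 2h against 10.5, 11.4 and 17.1 CPM at 0h, again without overlap, and fell by 4.02 ± 0.22 on the log2 scale (adjusted p = 1.8e-23).

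At 12h no replication gene but MCM3 was called against 0h, and most were called higher at 1D and 2D. MCM2 was at 4.12, 3.67 and 2.6 CPM at 12h, at 4.9, 4.02 and 4.8 CPM at 18h, at 8.72, 10.4 and 11.8 CPM at 1D, and at 9.84, 10.2 and 9.12 CPM at 2D. At 1D and 2D all its libraries were above those of 0h, the nearest being the third replicate of 0h at 8.51 CPM. The log2 fold change was 1.33 ± 0.40 at 1D (adjusted p = 0.0049) and 1.24 ± 0.40 at 2D (adjusted p = 0.0083). MCM7 was at 8.1, 8.74 and 9.86 CPM at 1D, all above its 0h libraries (log2 fold change 1.28 ± 0.40, adjusted p = 0.0066). PCNA1 (AT1G07370) was at 0.137, 0.473 and 2.01 CPM at 0h, at 3.2, 4.33 and 3.95 CPM at 1D and at 5.05, 4.24 and 3.21 CPM at 2D, and the libraries of 0h lay below all the others (at 1D, log2 fold change 2.13 ± 0.48, adjusted p = 0.00017). The transcript of PCNA1 is 85.7% identical to that of PCNA2 over 69.7% of its length, and reads shared between them are uncertain. With MCM4 and MCM6, the genes MCM2, MCM7 and PCNA1 made 5 of 7 replication genes higher at both 1D and 2D. MCM3 and MCM5 were not called at either. MCM3 was called lower at 12h and 18h, but at neither time without the third 0h library of WT. Of the 7 genes, 5 had their highest WT mean at 1D and 2 at 2D. By 5D MCM2 was at 1.92, 2.08 and 2 CPM, and MCM2, MCM6 and MCM7 were called lower than at 0h.

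The third 0h library of WT decided how far these genes passed the test. Without it, 6 of 7 remained lower at each of 1h, 2h, 4h and 6h, while PCNA1 did not pass (log2 fold change -0.44 ± 0.57, adjusted p = 0.52 at 1h). The number called higher became 2 of 7 at 12h (PCNA1 and MCM4), 5 at 18h, 6 at 1D, 2D and 3D and 4 at 4D, against 0, 0, 5, 5, 0 and 0 with it. MCM2 at 1D then had a log2 fold change of 2.44 ± 0.43 (adjusted p = 4.2e-06), and none of the 7 was called lower at 5D. Over all 54 genes the counts without that library, higher and lower, were 6 and 12 at 6h, 17 and 4 at 1D, 34 and 4 at 2D, and 15 and 4 at 5D. With the first 0h library of WT left out in its place, 2 of 7 replication genes were called higher at 1D and at 2D. Here and below, shares of all genes called with a library left out are not given. Such counts therefore do not tell whether a shift is particular to the members.

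A search of the 300 bases before the annotated start of each gene was made for E2F sites, in the forms TTTCCCGC, TTTGGCGC, TTTCGCGC and TTTGCCGC on either strand. A form was found in 5 of the 7 replication promoters (71.4%), those of MCM2 to MCM6, and in 432 of the 27443 promoters of protein-coding genes (1.57%). Outside the replication genes, CYCD3;3 was the only member whose promoter held a form. The promoters of MCM2 (chr1:16969914-16970213, plus strand), MCM5 (chr2:3527501-3527800, minus strand) and MCM6 (chr5:18010668-18010967, minus strand) are given from RefSeq's TAIR10.1, 5′ to 3′ along the gene. These genes were called lower at 1h, 2h, 4h and 6h and rose from 6h to 12h, as did all 7 replication genes. MCM5, unlike MCM2 and MCM6, was not called higher than at 0h at 1D or 2D. Capitals mark the match, which began 14, 19 and 46 bases before the start.
MCM2: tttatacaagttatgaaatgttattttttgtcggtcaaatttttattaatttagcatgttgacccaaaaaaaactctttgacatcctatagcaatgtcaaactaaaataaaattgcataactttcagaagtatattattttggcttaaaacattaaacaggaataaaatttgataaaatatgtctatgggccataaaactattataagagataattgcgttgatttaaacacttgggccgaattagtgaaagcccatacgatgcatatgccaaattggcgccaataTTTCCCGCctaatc
MCM5: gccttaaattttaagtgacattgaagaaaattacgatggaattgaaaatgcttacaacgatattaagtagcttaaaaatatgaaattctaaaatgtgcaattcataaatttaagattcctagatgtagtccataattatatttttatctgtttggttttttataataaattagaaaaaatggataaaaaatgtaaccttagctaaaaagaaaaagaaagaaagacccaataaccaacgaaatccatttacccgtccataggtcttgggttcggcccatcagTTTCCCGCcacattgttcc
MCM6: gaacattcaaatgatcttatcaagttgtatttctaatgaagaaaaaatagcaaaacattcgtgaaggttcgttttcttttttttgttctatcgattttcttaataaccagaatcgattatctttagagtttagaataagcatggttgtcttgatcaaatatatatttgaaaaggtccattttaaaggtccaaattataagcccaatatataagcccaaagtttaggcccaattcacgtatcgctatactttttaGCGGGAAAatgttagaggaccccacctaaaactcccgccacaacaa
A match describes these letters only, and binding was not measured. MCM7 and PCNA1 held none of the forms in this window, and were among the genes called lower at 1h, 2h, 4h and 6h.

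**Figure D2:**
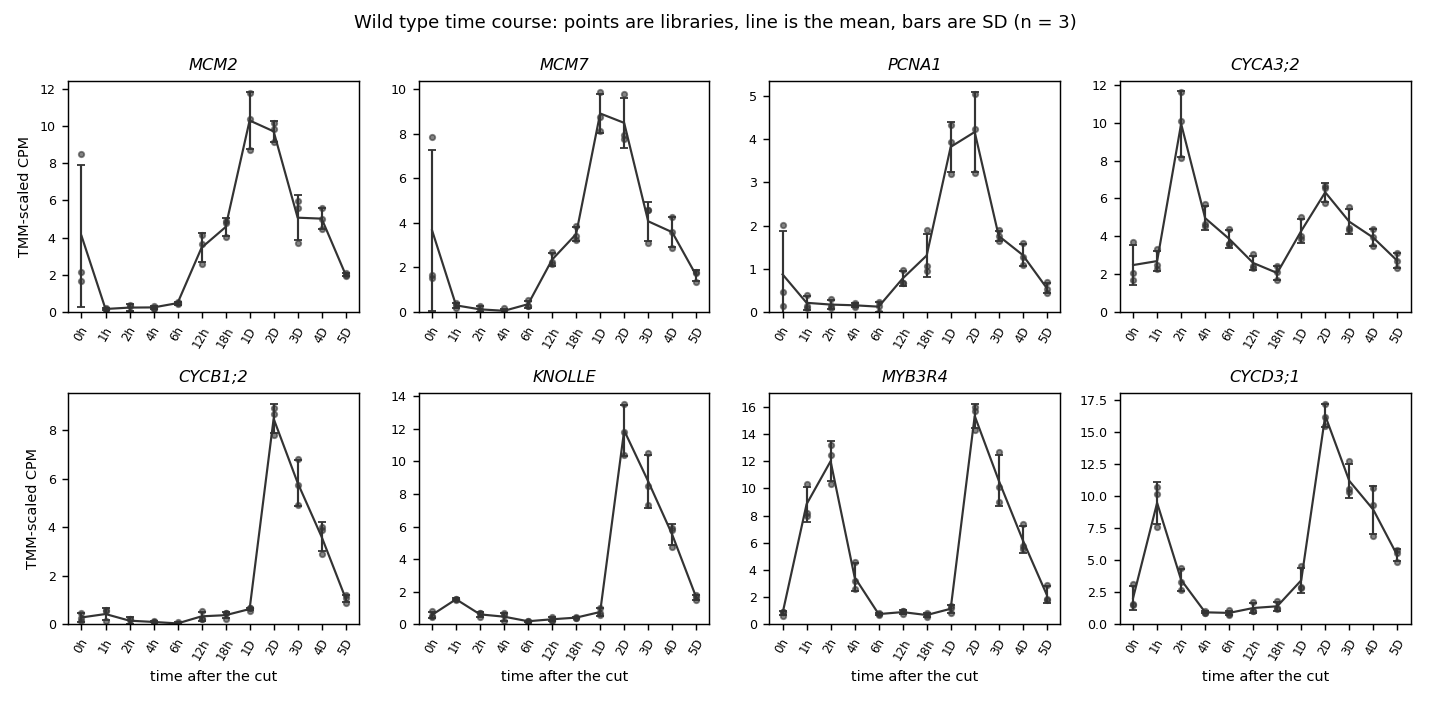
Levels in CPM of MCM2, MCM7, PCNA1, CYCA3;2, CYCB1;2, KNOLLE, MYB3R4 and CYCD3;1 in every WT library against time after the cut, with points for libraries and lines through the group means. The replication genes dip at 1h to 6h and peak at 1D and 2D, and the mitotic genes peak at 2D.

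Of the D-type cyclins, the G1 partners of CDKs, 5 of 10 were called at 1 or more WT times (beside 64.2% of all genes tested). CYCD3;1 (AT4G34160), which drives leaf cells to divide, was at 10.7, 10.1 and 7.59 CPM at 1h against 1.6, 1.48 and 3.11 CPM at 0h (log2 fold change 2.19 ± 0.28, adjusted p = 1.2e-09). It was back at 0.746, 1.1 and 0.841 CPM at 6h, below all 0h libraries. At 2D it reached 15.5, 16.2 and 17.2 CPM, its highest level of the course (log2 fold change 2.98 ± 0.29, adjusted p = 5.7e-13). CYCD3;1 overlaps the gene AT4G34150 on the same strand, and reads there are uncertain. CYCD6;1 (AT4G03270), known from the divisions that pattern the root, had the widest range of the D-type genes. It was at 0.397, 0.927 and 0.889 CPM at 0h, at 3.48, 3.28 and 3.31 CPM at 1h, at 0.239, 0.266 and 0.37 CPM at 18h and at 10.6, 10.7 and 11.5 CPM at 3D. The libraries of 1h and 3D lay above those of 0h and the libraries of 18h below them, and the change at 3D was 3.90 ± 0.32 on the log2 scale (adjusted p = 2.3e-15). CYCD1;1 (AT1G70210) went the other way, at 0, 0.537 and 0.655 CPM at 4h against 3.69, 5.86 and 7.64 CPM at 0h (log2 fold change -3.83 ± 0.37, adjusted p = 1.6e-13). It was called lower at 2h, 4h, 6h and 5D. CYCD3;3 rose at 1h, 18h and 2D, and CYCD4;1 from 1D to 5D. The other 5, CYCD2;1, CYCD3;2 (AT5G67260), CYCD4;2 (AT5G10440), CYCD5;1 and CYCD7;1, were called at no WT time.

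Among the transcription factors, E2FB (AT5G22220), an activator of the entry into S phase, was at 8.84, 7.39 and 8.02 CPM at 0h, at 19.5, 16.8 and 20.3 CPM at 1h and at 23.3, 25.3 and 22 CPM at 2h. All libraries of 1h and 2h lay above those of 0h, and the log2 fold change at 2h was 1.54 ± 0.10 (adjusted p = 5.9e-21). E2FB was called higher at 1h and 2h, when the replication genes were low. At 4h and 6h, when they were still low, E2FB was not called, and it was at 8.16, 9.2 and 8.22 CPM at 6h. E2FA, a further activator, and E2FC, a repressor, were called at no WT time. MYB3R4 (AT5G11510), an activator of mitotic genes, had 2 separate highs. It was at 0.916, 0.631 and 0.905 CPM at 0h, at 7.98, 8.21 and 10.3 CPM at 1h, at 12.4, 13.2 and 10.4 CPM at 2h and at 0.822, 0.783 and 0.664 CPM at 6h. It then reached 14.3, 15.7 and 16 CPM at 2D. The libraries of 1h, 2h and 2D were all above those of 0h, with log2 fold changes of 3.42 ± 0.25 at 1h (adjusted p = 8.9e-18), 3.87 ± 0.26 at 2h (adjusted p = 6.9e-20) and 4.22 ± 0.26 at 2D (adjusted p = 2.4e-20). MYB3R4 was called higher at 4h and from 3D to 5D as well. MYB3R1 (AT4G32730), its relative, was not called at any WT time: it was at 28.7, 27.5 and 27.2 CPM at 0h, at 16.2, 14.4 and 15.7 CPM at 1h and at 42.7, 44.7 and 42.4 CPM at 4h.

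Of the 9 CDK inhibitors, 4 fell at 1h and 4 at 1D. SMR1 (AT3G10525), a SIM-related inhibitor, was at 17, 19.3 and 20.4 CPM at 1h against 75.7, 80.5 and 75 CPM at 0h, with no overlap (log2 fold change -2.02 ± 0.15, adjusted p = 2.1e-17). It stayed below its 0h libraries at every later WT time, for example at 23.2, 24.8 and 27 CPM at 2D, but was not called lower at 6h and 12h. KRP2 (AT3G50630) was at 4.43, 5.35 and 4.73 CPM at 1h against 19.8, 17.7 and 18 CPM at 0h (log2 fold change -1.94 ± 0.16, adjusted p = 3.6e-16), and KRP1 (AT2G23430) and KRP5 were called lower at 1h too. KRP6 (AT3G19150) moved up, with 58.9, 59.3 and 69.1 CPM at 1h against 20.3, 17.3 and 15.3 CPM at 0h (log2 fold change 1.82 ± 0.14, adjusted p = 6.4e-17), and was called higher from 1h to 6h. At 1D, KRP1, KRP2, SIM (AT5G04470) and SMR1 were called lower. KRP1 was then at 18.7, 18.3 and 15.1 CPM, against 50, 49.2 and 39.1 CPM at 0h (log2 fold change -1.41 ± 0.13, adjusted p = 2.9e-13). SIM, which stops division in leaf hairs, fell by 1.16 ± 0.15 on the log2 scale at 1D (adjusted p = 3.2e-09). At 2D, when the mitotic genes were highest, KRP2, KRP7 (AT1G49620) and SMR1 were lower. KRP7 was at 2.11, 3.15 and 2.35 CPM at 0h, at 4.33, 3.36 and 4.29 CPM at 4h and at 0.915, 0.692 and 0.796 CPM at 2D, so that 2D lay below and 4h above the 0h libraries (at 2D, log2 fold change -1.66 ± 0.27, adjusted p = 9.2e-07). KRP3 and KRP4 were called at no WT time.

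**Figure D3:**
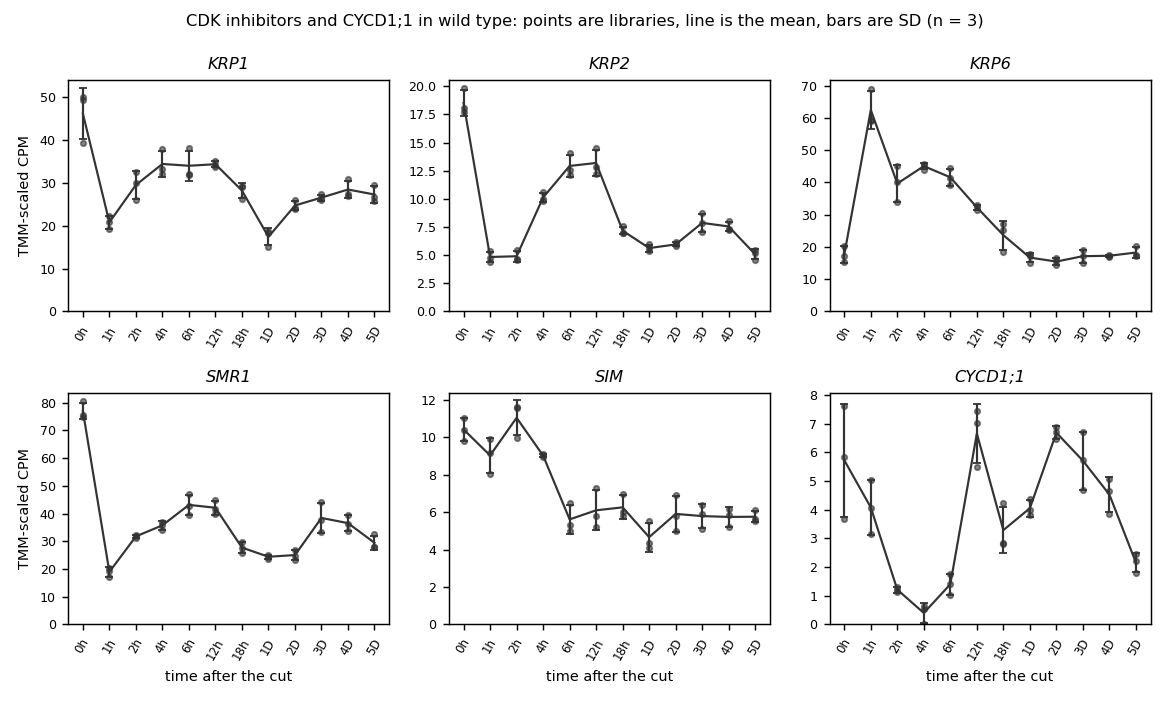
Levels in CPM of the CDK inhibitors KRP1, KRP2, KRP6, SMR1 and SIM and of CYCD1;1 in every WT library against time after the cut, with points for libraries and lines through the group means. SMR1 and KRP2 drop and KRP6 climbs between 0h and 1h.

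Of the 7 A-type cyclins, CYCA2;2 was called higher at 1h and CYCA3;2 at 2h, while CYCA2;3 was lower at 1h and CYCA2;4 at 4h and 6h. CYCA3;2 (AT1G47210), an S-phase cyclin, was at 11.6, 10.1 and 8.12 CPM at 2h against 1.69, 2.05 and 3.7 CPM at 0h, without overlap (log2 fold change 2.00 ± 0.22, adjusted p = 1.1e-11). CYCA2;2 (AT5G11300), a G2 cyclin, was above its 0h libraries at 1h, overlapped with them from 2h to 6h and was highest at 2D. It was at 0.153, 0.355 and 0.428 CPM at 0h, at 0.612, 0.809 and 0.778 CPM at 1h, at 0.368, 0.23 and 0.0802 CPM at 2h, at 0.908, 0.801 and 0.805 CPM at 12h, at 1.37, 1.34 and 1.48 CPM at 1D, at 5.34, 5.79 and 6.44 CPM at 2D and at 2.02, 1.97 and 1.79 CPM at 5D. The libraries of 1h and all libraries from 12h on were above those of 0h, those of 2h were not, and the log2 fold change was 4.23 ± 0.31 at 2D (adjusted p = 1.9e-17) and 2.63 ± 0.30 at 5D (adjusted p = 7.2e-11). At 2D, 6 of the 7 A-type genes were higher, all but CYCA2;1, which stayed under 1 CPM on average in all groups. At 3D it was 5 of 7 and at 4D 2 of 7.

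Of the CDKs, the 4 CDKB genes, whose kinases are made around G2 and mitosis, were higher at 2D, 3D and 4D. CDKB1;1 (AT3G54180) was at 3.95, 4.49 and 3 CPM at 2D against 0.107, 0.138 and 0.214 CPM at 0h (log2 fold change 4.62 ± 0.57, adjusted p = 7.9e-10). Its close relative CDKB1;2 (AT2G38620) was at 1.15, 1.33 and 1.2 CPM at 2D against 0, 0.0591 and 0 CPM at 0h, which is at least 8.95-fold higher than the floor. CDKB2;1 (AT1G76540) was at 9.61, 9.64 and 8.43 CPM at 2D against 0.443, 0.887 and 0.757 CPM at 0h (log2 fold change 3.74 ± 0.33, adjusted p = 2.6e-14). No library of 2D overlapped with 0h for any of the 3 genes. The transcripts of CDKB1;1 and CDKB1;2 are 84.9% identical and those of the CDKB2 pair 86.0%, so that counting could have split reads between them. CDKA;1 (AT3G48750), the kinase of the whole cycle, was at 21, 19.3 and 19.4 CPM at 2h, against 40.8, 42.1 and 39.5 CPM at 0h (log2 fold change -1.03 ± 0.08, adjusted p = 2.7e-17), and was called at no other WT time.

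All 9 B-type cyclins, the cyclins of mitotic entry, were higher at 2D, 3D and 4D, with role medians of 4.40, 4.18 and 3.39 on the log2 scale, and 6 of 9 at 5D. CYCB1;2 (AT5G06150) was at 0.122, 0.256 and 0.477 CPM at 0h, at 0, 0 and 0.118 CPM at 6h and at 0.664, 0.664 and 0.566 CPM at 1D. It reached 8.69, 8.94 and 7.81 CPM at 2D, followed by 4.93, 6.82 and 5.76 CPM at 3D, 3.99, 2.92 and 3.9 CPM at 4D and 1.1, 1.2 and 0.894 CPM at 5D. The 6h libraries lay below and the libraries from 1D on above all those of 0h. The log2 fold change was 4.89 ± 0.59 at 2D (adjusted p = 4.8e-10), and the level at 6h was at least 2.42-fold lower. A stretch of its transcript, 21.7% of the length, is 97.9% identical to the gene AT1G34460, and reads there are uncertain. CYCB2;1 (AT2G17620) was at the floor in all 3 libraries of 0h and at 0.779, 0.764 and 0.451 CPM at 2D, at least 4.85-fold higher. Before 1D the family did not move as a unit. At 1h CYCB1;1 and CYCB3;1 were called higher, as was CYCB2;1, which was at the floor in both groups. At 2h CYCB2;1 and CYCB2;2 were called higher and CYCB1;3 lower, and at 4h CYCB2;4 was called lower. At 6h, 5 of 9 were called lower. CYCB2;2 (AT4G35620) was the only B-type gene called higher at 4h, 6h and 12h. It was at 0.909, 0.844 and 1.4 CPM at 2h against 0.214, 0.0986 and 0.28 CPM at 0h (log2 fold change 2.38 ± 0.44, adjusted p = 2.8e-06). It was called higher from 2h to 12h, read 0.151, 0.369 and 0.126 CPM at 1D, within the range of 0h but for 1 higher and no lower library, and was at 2.29, 3.28 and 2.84 CPM at 2D.

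KNOLLE (AT1G08560), the syntaxin of the growing cell plate, and CDC20.1 (AT4G33270), an activator of the anaphase-promoting complex, followed the B-type cyclins. KNOLLE was at 0.427, 0.513 and 0.806 CPM at 0h, at 1.57, 1.58 and 1.47 CPM at 1h, at 0.183, 0.228 and 0.162 CPM at 6h and at 11.8, 13.5 and 10.4 CPM at 2D. CDC20.1 was at 0.336, 0.729 and 0.905 CPM at 0h, at 1.57, 1.36 and 1.04 CPM at 1h, at 0.122, 0.114 and 0.192 CPM at 6h and at 10.9, 11.6 and 10.6 CPM at 2D. For both genes 1h and 2D lay above and 6h below all libraries of 0h. The log2 fold changes of KNOLLE were 1.40 ± 0.33 at 1h (adjusted p = 0.00022) and 4.35 ± 0.34 at 2D (adjusted p = 4.4e-16), and CDC20.1 fell by 2.18 ± 0.45 at 6h (adjusted p = 5.1e-05). The transcripts of CDC20.1 and CDC20.2 are 89.0% identical over 82.1% of the length, and reads shared between them are uncertain.

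The MSA core AACGG was searched on both strands in the same 300-base windows. At least 1 copy stood in 7 of 9 B-type promoters (77.8%) and at least 2 copies in 6 of 9 (66.7%), against 6430 (23.4%) and 1243 (4.53%) of the 27443 promoters. KNOLLE and CDC20.1 held 1 copy each, as did 1 of the 7 replication genes. At least 1 copy was also found in 5 of 9 inhibitors (55.6%) and 4 of 7 A-type cyclins (57.1%), so the element was not limited to the genes of mitosis. The promoters of CYCB1;1 (chr4:17624309-17624608, minus strand), CYCB1;2 (chr5:1861704-1862003, minus strand) and CYCB2;3 (chr1:7137829-7138128, minus strand) are given, from the same source, as those of the gene with the lowest B1 change at 2D, of the highest B1 change and of a B2 gene. Capitals mark the core in either orientation.
CYCB1;1: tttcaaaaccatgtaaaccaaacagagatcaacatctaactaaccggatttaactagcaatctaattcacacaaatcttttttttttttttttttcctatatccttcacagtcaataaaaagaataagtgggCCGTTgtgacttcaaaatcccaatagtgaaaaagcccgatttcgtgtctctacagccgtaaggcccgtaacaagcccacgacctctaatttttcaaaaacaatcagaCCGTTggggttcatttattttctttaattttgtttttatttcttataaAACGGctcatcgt
CYCB1;2: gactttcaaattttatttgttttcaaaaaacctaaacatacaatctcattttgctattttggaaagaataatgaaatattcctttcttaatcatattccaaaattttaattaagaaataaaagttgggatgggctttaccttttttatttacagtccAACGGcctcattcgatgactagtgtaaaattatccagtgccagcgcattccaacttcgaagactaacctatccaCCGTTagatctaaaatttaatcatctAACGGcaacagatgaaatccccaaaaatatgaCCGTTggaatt
CYCB2;3: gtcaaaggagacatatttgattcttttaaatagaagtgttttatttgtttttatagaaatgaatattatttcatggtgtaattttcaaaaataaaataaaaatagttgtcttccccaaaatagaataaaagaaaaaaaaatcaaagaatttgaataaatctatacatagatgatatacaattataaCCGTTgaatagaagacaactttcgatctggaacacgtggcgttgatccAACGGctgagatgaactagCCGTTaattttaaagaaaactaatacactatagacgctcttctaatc
Cores began 168, 61 and 13 bases before the start in the promoter of CYCB1;1, 143, 69, 43 and 11 bases before it in that of CYCB1;2, and 114, 66 and 47 bases before it in that of CYCB2;3. All 3 genes were higher at 2D, with log2 fold changes of 2.54 ± 0.38, 4.89 ± 0.59 and 4.09 ± 0.58 in the same order.

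Steps between neighbouring WT times placed the waves without use of the 0h libraries. From 6h to 12h, 18 of the 54 genes were called higher and 0 lower, with 6.43% and 4.25% of all genes, and these held all 7 replication genes. From 18h to 1D 9 were called higher and 0 lower (3.17% and 1.87% of all genes), 5 of them replication genes. From 1D to 2D 21 were called higher and 0 lower (4.46% and 3.61%): all 9 B-type cyclins, the 4 CDKB genes, KNOLLE, CDC20.1, MYB3R4, CYCA1;1, CYCA2;2, CYCA2;4, CYCD3;1 and CYCD6;1, and none of the replication genes. From 4D to 5D 0 were called higher and 13 lower (0.23% and 1.02%), among them MYB3R4, KNOLLE, CDC20.1 and MCM2. Early steps, higher and lower, were 5 and 12 from 1h to 2h (12.0% and 12.4%), 1 and 7 from 2h to 4h (12.8% and 9.94%), 2 and 3 from 4h to 6h (2.69% and 2.97%) and 0 and 3 from 12h to 18h (3.09% and 4.18%). No member was called from 2D to 3D (2.55% and 1.25% of all genes higher and lower) or from 3D to 4D (0.383% and 0.55%), 0 of 54 by edgeR, where 15 and 10 members had an unadjusted p under 0.05 and DESeq2 called 3 and 0. Here and below, shares of all genes at an unadjusted p under 0.05 are not given. Such counts therefore do not tell whether a shift is particular to the members.

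Other genes of the same processes, listed by name, moved with the members in part. Of 17 further replication genes, 6, 7, 6 and 6 were called lower at 1h, 2h, 4h and 6h, and 1, 2, 3 and 0 higher. Their summed level was 75.55 to 78.59 CPM at 1h, 120.9 to 124.3 CPM at 4h and 106.8 to 119.3 CPM at 6h, with 95.89 to 143.2 CPM at 0h, so that 1h lay below 0h and the later 2 overlapped with it. This sum weighs the highest genes most: RNR2A, RNR1, TIL1 and TSO2 had highest group means of 68.5, 45.1, 42.0 and 32.4 CPM. The other genes of the list reached at most 14.3 CPM. At 1D 8 were higher and 0 lower, and at 2D 12 were higher and 1 lower. ORC1A, a subunit of the origin recognition complex, went against the early fall: it was at 3.4, 2.8 and 1.88 CPM at 1h against 0, 0.217 and 0.214 CPM at 0h (log2 fold change 4.24 ± 0.73, adjusted p = 9.8e-07). Of 9 further genes of mitosis and cytokinesis, 3 were called higher at 1h and at 2h, TES, AUR2 and AUR3, and 0 and 1 lower. Their summed level was 6.075 to 7.604 CPM at 0h, 13.3 to 16.15 CPM at 1h, 30.25 to 33.15 CPM at 2h and 7.366 to 11.69 CPM at 6h, when 4 were called lower. TES, a kinesin of cytokinesis, made up most of that early sum, with 30.9, 29.4 and 27.4 CPM at 2h against 4.37, 4.32 and 4.07 CPM at 0h. At 2D, 3D and 4D 8 were higher, and at 5D 7. AUR2, an Aurora kinase, was at 2.68, 3.53 and 2.28 CPM at 2D against 0, 0.0986 and 0.115 CPM at 0h, which is the floor. HIK, a kinesin of the cell plate, was at 10.6, 10 and 9.98 CPM at 2D against 0.0916, 0.473 and 0.329 CPM at 0h. Of 26 further cell cycle regulators tested, 12 were higher at 2D and 14 at 3D, with 0 lower. The summed level of this list was 189.1 to 194.3 CPM at 0h, 277.1 to 292.0 CPM at 2h and 254.9 to 259.7 CPM at 2D. WEE1, of the same list, was called lower at 1h. DEL3, an atypical E2F, was at 1.95, 2.62 and 1.2 CPM at 2D and at 0 CPM in all 3 libraries of 0h.

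Markers of dividing leaf cell types were read beside these results, and their part in them was not tested. Of 7 stomatal lineage markers, 0 were higher and 4 lower at 2D, and 0 were higher and 2 lower at 1h. Their summed level was 37.31 to 55.07 CPM at 0h, 15.92 to 20.48 CPM at 1h, 41.97 to 45.43 CPM at 4h and 21.47 to 24.62 CPM at 2D. FAMA made up most of this sum, with a highest group mean of 41.9 CPM, against at most 3.97 CPM for any other gene of the list. BASL, among those lower at 2D, had group means of at most 0.137 CPM. SPCH, which starts the stomatal lineage, was at 0, 0.0443 and 0.0786 CPM at 1D, at the floor. Of 4 procambium and cambium markers, WOX4 was higher at 12h and from 1D to 5D, with 5.57, 6.62 and 4.83 CPM at 3D against 0.412, 0.789 and 1.32 CPM at 0h (log2 fold change 2.76 ± 0.28, adjusted p = 2.9e-12). ANT was lower from 1h to 1D, with 0, 0.364 and 0.281 CPM at 2h against 2.12, 2.29 and 4.53 CPM at 0h, the third library of 0h again being the highest. The summed level of the 4 was 35.7 to 42.66 CPM at 0h, 17.95 to 18.93 CPM at 1h, 19.98 to 22.02 CPM at 2h, 26.29 to 30.28 CPM at 4h, 27.08 to 30.69 CPM at 6h and 40.43 to 43.9 CPM at 2D. It was thus below 0h at the 4 times at which the replication genes were low. All 4 mesophyll markers were lower at 4h and 6h, with sums of 1958 to 2333 CPM at 4h against 7374 to 10880 CPM at 0h.

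Between the libraries labelled gpat4 gpat8 and WT, more members were called at 4h than at any other of the 7 times. At 4h 26 of the 54 genes were called higher and 0 lower, against 11.8% and 7.39% of all genes, and the median was 0.96 on the log2 scale, or 0.65 with bounds. All 7 replication genes, 7 of 9 B-type cyclins, the A2 cyclins, 4 of 10 D-type cyclins, CDKB1;1, CDKB2;1, KNOLLE and CDC20.1 were higher, and no inhibitor or transcription factor was. MCM2 was at 2.22, 3.35 and 4.28 CPM in gpat4 gpat8 at 4h, against 0.182, 0.353 and 0.218 CPM in WT at 4h (log2 fold change 3.70 ± 0.50, adjusted p = 1.1e-08). MCM7 was at 3.35, 2.36 and 2.9 CPM in gpat4 gpat8, against 0, 0 and 0.172 CPM in WT (log2 fold change 5.58 ± 0.61, adjusted p = 2.7e-11). PCNA1 was at 1.27, 1.73 and 1.29 CPM in gpat4 gpat8, against 0.116, 0.2 and 0.156 CPM in WT (log2 fold change 3.17 ± 0.56, adjusted p = 2.9e-06). None of the 3 genes overlapped between the genotypes at 4h.

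The mitotic genes called at 4h were at low levels. CYCB1;2 was at 0.549, 0.96 and 1.41 CPM in gpat4 gpat8, against 0.0991, 0.123 and 0.078 CPM in WT, at least 7.7-fold higher than the floor. CYCB2;4 (AT1G76310) was at 0.475, 0.856 and 0.743 CPM in gpat4 gpat8 and at 0 CPM in all 3 WT libraries, at least 5.46-fold higher. KNOLLE was at 1.65, 1.31 and 1.98 CPM in gpat4 gpat8, against 0.545, 0.2 and 0.671 CPM in WT, without overlap (log2 fold change 1.80 ± 0.34, adjusted p = 9.0e-06). CYCD1;1, low in WT at this time, was at 2.25, 5.66 and 3.71 CPM in gpat4 gpat8, against 0, 0.537 and 0.655 CPM in WT (log2 fold change 3.27 ± 0.36, adjusted p = 4.3e-11). CYCA2;1 and CYCB2;1 were called too, but both genotypes were at the floor.

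Beside the 4h difference, several other values differed between the genotypes. CCA1 was at 18.7, 18.6 and 20 CPM in gpat4 gpat8 at 4h, against 5.83, 7.23 and 6.21 CPM in WT. All 4 mesophyll markers were higher, with sums of 15170 to 17040 CPM in gpat4 gpat8 against 1958 to 2333 CPM in WT, and 2 of 4 cambium markers, with sums of 55.43 to 57.96 CPM against 26.29 to 30.28 CPM. ATHB-8, a marker of procambium, was at 34.2, 32.4 and 33.2 CPM in gpat4 gpat8, against 14, 15.4 and 15.1 CPM in WT. Stomatal lineage markers, mostly FAMA, summed to 32.29 to 38.5 CPM in gpat4 gpat8 and to 41.97 to 45.43 CPM in WT. Of the lists of further genes, 8 of 17 replication genes, 7 of 9 mitotic genes and 7 of 26 regulators were higher in gpat4 gpat8 at 4h, and 0, 0 and 3 lower. The part of these values in the difference of the members was not tested.

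**Figure D4:**
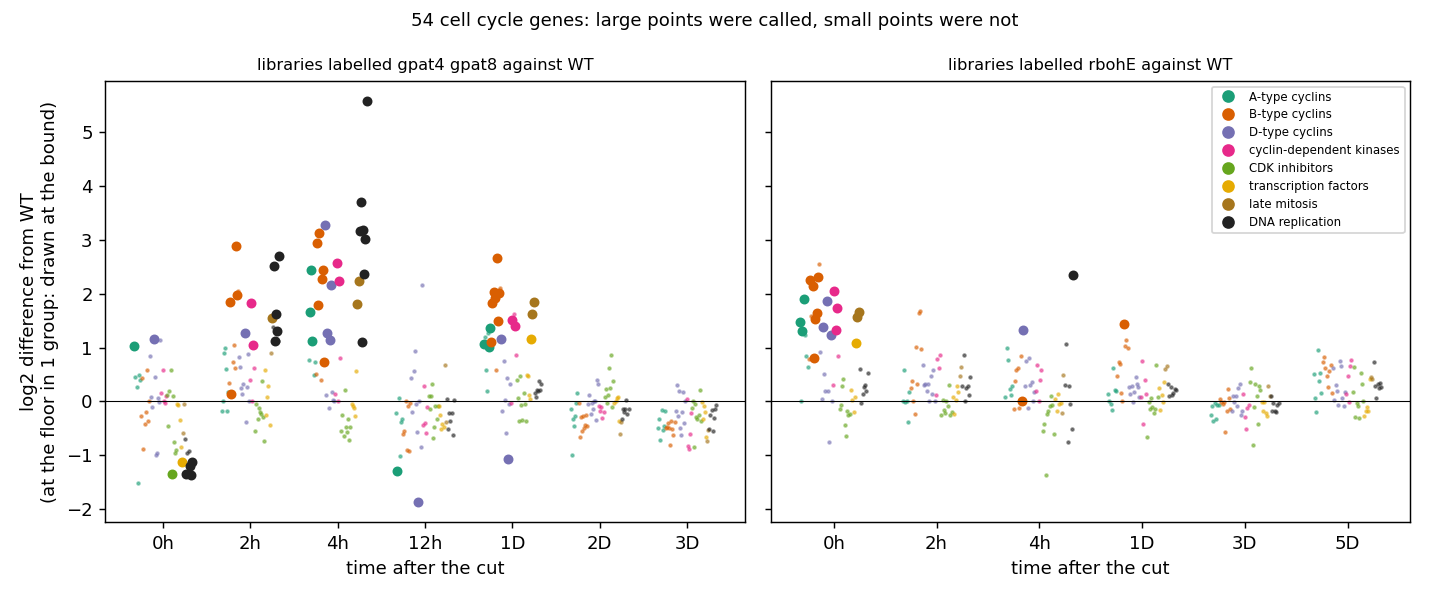
Log2 fold changes of the 54 genes between each mutant and WT at the same time, for gpat4 gpat8 (left) and rbohE (right). Time runs along the horizontal axis, the vertical axis is in log2 units and colours mark roles. Large points are called genes and small points are genes not called. Genes at the floor in both groups are left out, and a bound is drawn where a single group was at the floor. Most large points stand at 4h and 1D in gpat4 gpat8 and at 0h in rbohE. No large points stand at 2D and 3D in gpat4 gpat8 or at 2h, 3D and 5D in rbohE.

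At 2h 13 of the 54 genes were higher in gpat4 gpat8 and 0 lower, with 4.58% and 2.27% of all genes, but this rested on 1 library. MCM2 was at 0.718, 2.88 and 0.636 CPM in gpat4 gpat8 at 2h, against 0, 0.384 and 0.341 CPM in WT at 2h, the second replicate being the high one. KNOLLE showed the same library apart, at 0.908, 1.72 and 0.771 CPM in gpat4 gpat8. Without it 2 genes were called higher, CYCB2;3 (log2 fold change 2.47 ± 0.70, adjusted p = 0.0078) and MCM7 (log2 fold change 2.22 ± 0.66, adjusted p = 0.011). At 1D 16 genes were higher and 1 lower, with 7.80% and 3.61% of all genes: 7 of 9 B-type cyclins, 3 of 7 A-type cyclins, CYCD1;1, CDKB1;1, CDKB2;1, MYB3R4, KNOLLE and CDC20.1, and none of the 7 replication genes. CYCB2;2 was at 1.11, 1.31 and 1.74 CPM in gpat4 gpat8 at 1D, against 0.151, 0.369 and 0.126 CPM in WT at 1D (log2 fold change 2.67 ± 0.43, adjusted p = 7.2e-07). KNOLLE was at 2.6, 2.3 and 2.1 CPM in gpat4 gpat8, against 0.694, 1.03 and 0.55 CPM in WT (log2 fold change 1.62 ± 0.32, adjusted p = 3.2e-05), while MCM2 was at 11.1, 13 and 8.77 CPM in gpat4 gpat8 and at 8.72, 10.4 and 11.8 CPM in WT. KNOLLE and the B2 gene did not overlap between the genotypes, and MCM2 did. The 1D libraries of gpat4 gpat8 carry the M, their mesophyll sums were 11320 to 12110 CPM against 3829 to 4318 CPM in WT, and their cambium sums 54.94 to 57.59 CPM against 40.72 to 42.53 CPM.

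Fewer members were called at the remaining times. At 0h 2 genes were higher in gpat4 gpat8 and 6 lower, with 10.8% and 9.70% of all genes. CYCD3;2, called at no WT time, was at 40.8, 45 and 38.8 CPM in gpat4 gpat8 at 0h, against 19.5, 17.6 and 19 CPM in WT at 0h (log2 fold change 1.15 ± 0.10, adjusted p = 6.2e-15). MCM2, MCM5, MCM6 and MCM7 were lower at 0h, but none of the replication genes was called without the third 0h library of WT. Without the first 0h library of WT all 7 were called lower, with log2 fold changes of -1.80 to -1.10. At 12h 0 genes were higher and 2 lower, with 7.20% and 5.53% of all genes. CYCD4;2 was the more marked of these, at 0.514, 0.147 and 0.541 CPM in gpat4 gpat8 at 12h, against 1.78, 1.25 and 1.4 CPM in WT at 12h (log2 fold change -1.87 ± 0.34, adjusted p = 1.0e-05). The groups did not overlap. At 2D and 3D no member was called by edgeR, with 1.80% and 0.264% of all genes higher and lower at 2D and 2.52% and 0.639% at 3D. An unadjusted p under 0.05 was found for 6 and 10 members, and DESeq2 called 0 and 0. CYCB1;2, for example, was at 4.96, 6.44 and 4.64 CPM in gpat4 gpat8 at 2D, against 8.69, 8.94 and 7.81 CPM in WT at 2D.

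Against their own 0h, the libraries labelled gpat4 gpat8 had 20 members higher and 2 lower at 4h (16.0% and 12.8% of all genes), where WT had 3 and 14. At 2h the counts were 14 and 11 (17.8% and 18.3%), at 12h 1 and 1 (9.60% and 6.90%), at 1D 31 and 5 (12.0% and 8.34%), at 2D 33 and 1 (15.0% and 12.9%) and at 3D 29 and 3 (13.5% and 11.2%). Without the second 0h library of gpat4 gpat8 the 4h counts became 12 and 1. The difference between the changes of the genotypes from 0h, an interaction, was called for 23 members at 4h, 22 of them positive, among them all 7 replication genes. MCM7 had an interaction of 6.70 ± 0.75 on the log2 scale (adjusted p = 8.6e-11) and MCM2 of 5.04 ± 0.66 (adjusted p = 5.8e-09). Of all genes, 12.5% and 9.86% were called positive and negative in that interaction. The 7 replication genes were also called without the third 0h library of WT. At 1D, MYB3R4 had an interaction of 2.28 ± 0.38 (adjusted p = 1.7e-06). These comparisons rest on the 0h libraries that carry the M and have high CCA1, and genotype, M and time of day cannot be told apart in them.

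The libraries labelled rbohE differed from WT in the members mainly at 0h, where 18 were higher and 0 lower, with 5.47% and 6.27% of all genes. These were 6 of 9 B-type cyclins, 3 of 7 A-type and 3 of 10 D-type cyclins, CDKB1;1, CDKB1;2, CDKB2;1, MYB3R4, KNOLLE and CDC20.1, and the median of the 54 was 0.62 on the log2 scale, or 0.57 with bounds. CYCB1;2 was at 1.77, 1.26 and 1.07 CPM in rbohE at 0h, against 0.122, 0.256 and 0.477 CPM in WT at 0h (log2 fold change 2.26 ± 0.57, adjusted p = 0.0010). KNOLLE was at 1.66, 1.61 and 1.9 CPM in rbohE, against 0.427, 0.513 and 0.806 CPM in WT (log2 fold change 1.56 ± 0.33, adjusted p = 0.00010). CDKB2;1 was at 2.64, 2.35 and 1.95 CPM in rbohE, against 0.443, 0.887 and 0.757 CPM in WT (log2 fold change 1.74 ± 0.32, adjusted p = 1.2e-05). The genotypes did not overlap at 0h for these 3 genes. CDKB1;2 and CYCB2;1, at the floor in WT, were at least 2.51-fold and at least 1.75-fold higher in rbohE. No replication gene was called, with MCM2 at 5.02, 3.83 and 3.17 CPM in rbohE at 0h, inside the spread of 1.66, 2.13 and 8.51 CPM in WT. Without the third 0h library of WT 27 members were higher and 0 lower, with 6 of 7 replication genes, and without the first 15 were higher and 0 lower.

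Beside this difference at 0h, 8 of 9 further mitotic genes, 1 of 17 further replication genes and 5 of 26 further regulators were higher in rbohE. Cambium markers summed to 61.9 to 75.08 CPM in rbohE and to 35.7 to 42.66 CPM in WT, with WOX4 and ANT called higher, and mesophyll markers to 18270 to 20090 CPM in rbohE and to 7374 to 10880 CPM in WT. Stomatal lineage markers, mostly FAMA, summed to 37.45 to 47.02 CPM in rbohE, within the 37.31 to 55.07 CPM of WT. TOC1, an evening gene of the clock, was at 243, 229 and 227 CPM in rbohE at 0h, against 136, 130 and 151 CPM in WT at 0h. RBOHE itself was higher in rbohE at 0h, against its label (log2 fold change 1.88 ± 0.40, adjusted p = 0.00011). GPAT8 was higher too, at 35.7, 33.4 and 25.3 CPM in rbohE against 4.64, 7.26 and 9.92 CPM in WT (log2 fold change 2.12 ± 0.29, adjusted p = 4.0e-08). The part of these values in the difference was not tested.

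After the cut rbohE and WT differed in few members. At 2h, 3D and 5D 0 were called, with 0.912% and 0.873% of all genes called higher and lower at 2h, 0.405% and 0.0937% at 3D and 1.33% and 0.302% at 5D. At an unadjusted p under 0.05 there were 7, 3 and 8 members, and DESeq2 called 2, 0 and 0. At 4h CYCD1;1, CYCB2;4 and MCM7 were higher and 0 lower (1.57% and 0.613% of all genes). MCM7 was at 0.412, 0.188 and 0.312 CPM in rbohE at 4h, against 0, 0 and 0.172 CPM in WT at 4h, all rbohE libraries being the higher ones (log2 fold change 2.35 ± 0.72, adjusted p = 0.027). At 1D CYCB2;2 alone was called higher (log2 fold change 1.43 ± 0.43, adjusted p = 0.0499), with 0.609% and 0.222% of all genes higher and lower. CYCB1;2 was at 6.93, 5.03 and 5.35 CPM in rbohE at 3D, against 4.93, 6.82 and 5.76 CPM in WT at 3D, and the values overlapped. KNOLLE was at 15.9, 7.5 and 8.76 CPM in rbohE at 3D, against 7.32, 10.5 and 8.46 CPM in WT, with 1 rbohE library above the rest.

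Against the 0h of the same genotype, more members were called lower at 2h and 4h in rbohE than in WT. Fewer were called higher in rbohE at 1D, 3D and 5D. The counts in rbohE, higher and lower, were 5 and 26 at 2h (21.6% and 23.7% of all genes), 2 and 26 at 4h (19.2% and 17.9%), 5 and 5 at 1D (12.8% and 11.7%), 17 and 2 at 3D (13.9% and 11.3%) and 2 and 7 at 5D (12.7% and 11.8%). In WT 12 and 14 were lower at 2h and 4h, with 20.0% and 13.1% of all genes. In rbohE all 7 replication genes were lower at 2h and 4h, and 7 of 9 B-type cyclins were higher at 3D. The interaction with genotype was called for 3 members at 2h and 5 at 4h, all negative. Of all genes, 4.57% and 2.69% were called positive and negative at 2h, and 4.58% and 2.27% at 4h. At 3D the interaction was called for 17 members, all negative, with 6.20% and 3.94% of all genes called positive and negative. CYCA1;1 had an interaction of -1.72 ± 0.36 (adjusted p = 0.00017) and CDKB2;1 of -1.86 ± 0.43 (adjusted p = 0.00069). The interaction from 2h to 3D, which does not use the 0h libraries, was called for 0 members by edgeR, with 7 at an unadjusted p under 0.05 and 0 by DESeq2, against 1.07% and 0.669% of all genes.

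**Figure D5:**
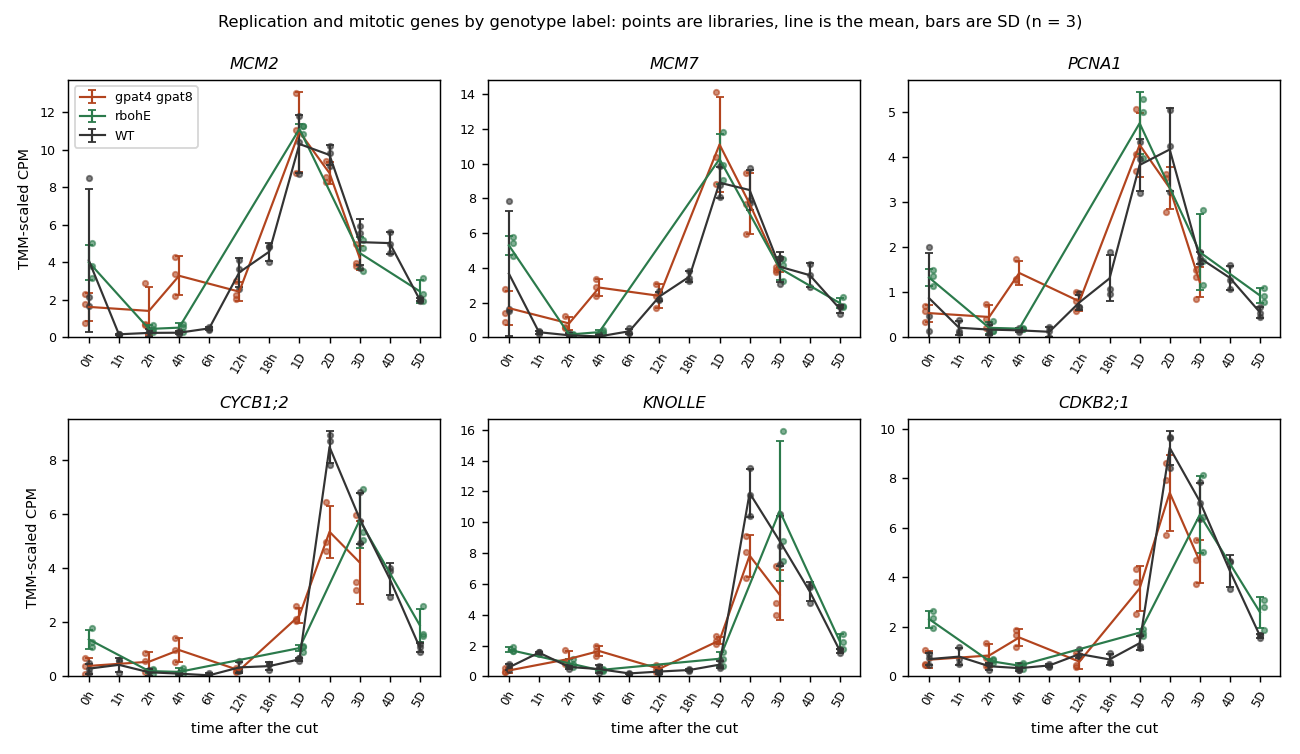
Levels in CPM of MCM2, MCM7, PCNA1, CYCB1;2, KNOLLE and CDKB2;1 against time after the cut in gpat4 gpat8 (brown), rbohE (green) and WT (black), with points for libraries and lines through the group means. At 4h gpat4 gpat8 stands above the other genotypes, and at 0h rbohE stands above them for CYCB1;2, KNOLLE and CDKB2;1.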

How the data were processed

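Messenger RNA of cut Arabidopsis leaves was measured in 75 libraries of 25 groups, made with a stranded kit per the labels' protocols. The authors deposited 1 table of estimated counts, whole numbers for 32833 genes and 1 column for each library. Per the submitters' processing notes, Trimmomatic 0.39, HISAT2 2.2.1, StringTie 1.3.4 and edgeR 3.19 were used with the TAIR10 build, and the column names credit the counts to StringTie. The annotation, read length and strand setting are not given in the sources used here, so reads of overlapping or antisense genes cannot be told apart. Low counts lay about 2.56 apart, which is taken as the worth of 1 fragment, and the floor of 8 counts is 3 fragments. It covers counting error only.

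From these counts, 23475 genes passed edgeR's filterByExpr (minimum count 10, minimum total 15), were scaled by TMM and were tested in R 4.3.3 with edgeR 4.0.16 (robust quasi-likelihood, limma 3.58.1), in 1 fit of all 75 libraries with 1 coefficient for each group. Groups came from the labels. From it 58 contrasts were taken: each time against 0h within a genotype, each mutant against WT at the same time, the interaction of the 2, and each WT time against the time before. CPM was computed on TMM-scaled totals. Each SE was derived from the log2 fold change and its F statistic. The step for many genes was tested on simulated data. Alternatives were DESeq2 1.42.0, its size factors (RLE) in edgeR, no filter, counts divided by their spacing, a fit of only the groups of each contrast, a replicate block, and each library left out in turn, with dispersion trend, scaling and filter kept from the complete fit. The members and lists were chosen with earlier results of these data known. Within a role, genes given in every library were to be those with the widest WT range and the most WT calls, among them CYCA2;2, CYCB1;2, CYCB2;2, CYCD6;1, CDKB1;1, CDKB1;2, KRP7, SMR1, MYB3R4, CDC20.1, MCM7 and MCM2. Other members given in full were chosen after their values were seen.

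Replicate numbers did not pair the libraries: in 5 of 45 comparisons every same-number correlation of deviations was over 0.1, and they ran from -0.287 to 0.539 over 12536 genes. Promoters are the 300 bases before the annotated gene start in RefSeq's TAIR10.1. Transcript identities came from the same RefSeq annotation.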

Additional observations from a re-analysis of the deposited data

Results flagged for a closer look

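The change from 0h differed between a mutant and WT for several of the 54 genes, by a test of the difference itself (the interaction of genotype and time, edgeR's quasi-likelihood test with Benjamini-Hochberg adjustment). For gpat4 gpat8, 19 members were called at 2h, 16 of them with a positive interaction and 3 with a negative one, while 9.54% and 8.34% of all genes were called positive and negative. At 2h MYB3R1 had an interaction of 1.13 ± 0.11 on the log2 scale (SE, adjusted p = 4.1e-12). At 4h 23 were called, 22 positive and 1 negative (12.5% and 9.86% of all genes). At 12h 2 were called, both negative (5.76% and 6.69%). At 1D 18 were called, 16 positive and 2 negative (9.51% and 6.99%). At 2D 6 were called, 4 positive and 2 negative (10.4% and 9.01%), and KRP5, a CDK inhibitor, had an interaction of 1.97 ± 0.24 (adjusted p = 1.6e-09) and SMR1 of 1.29 ± 0.21 (adjusted p = 8.9e-07). At 3D 4 were called, 2 in each direction (8.66% and 7.61%), among them SIM with 1.18 ± 0.21 (adjusted p = 8.4e-06). Counted from 2h in place of 0h, 14 members were called at 3D, all negative (2.18% and 2.46%), among them MCM3 with -1.30 ± 0.29 (adjusted p = 0.0011) and KNOLLE with -1.62 ± 0.45 (adjusted p = 0.0093).

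For rbohE, 3 members were called at 2h and 5 at 4h, all negative (4.57% positive and 2.69% negative of all genes at 2h, 4.58% and 2.27% at 4h). At 1D 8 were called, 1 positive and 7 negative (4.57% and 3.08%), and CYCD5;1 was the positive one, with 1.03 ± 0.21 (adjusted p = 0.00024). At 3D 17 were called and at 5D 4, all negative (6.2% and 3.94% at 3D, 5.54% and 2.53% at 5D).

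Single libraries moved these counts. Without the second 2h library of gpat4 gpat8, 3 members were called in its 3D interaction from 2h, all negative, and 8 positive and 2 negative in its 2h interaction. Without the third 0h library of WT, the positive and negative counts for gpat4 gpat8 were 10 and 2 at 2h, 19 and 1 at 4h, 0 and 3 at 12h, 8 and 2 at 1D, 3 and 4 at 2D, and 2 and 6 at 3D. For rbohE all members called without that library were negative, with counts of 6 at 2h, 8 at 4h and 11 at 1D, then of 24 at 3D and 8 at 5D. Without the first 0h library of WT, rbohE had 2 negative members at 2h and 3 at 4h. At 1D it then had 1 positive and 2 negative ones, and later 12 negative ones at 3D and 2 at 5D. The 0h libraries of gpat4 gpat8 carry the M and have high CCA1, and genotype, M and time of day cannot be told apart in these interactions.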

How the results depend on the processing

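Counts of called members moved by over 1.5 times in 18 of 58 comparisons when only the groups of the contrast were fitted, in 6 with DESeq2, in 2 with counts divided by their spacing and in 1 each with RLE, no filter and the replicate block. With only the groups fitted, which leaves fewer libraries to set the spread, the counts, with those of the complete fit in brackets, were 12 (20) for WT 6h against 0h, 13 (22) for gpat4 gpat8 4h against 0h, of which 8 were higher and 5 lower (20 and 2), 4 (8) for gpat4 gpat8 against WT at 0h, of which 3 were higher and 1 lower (2 and 6, so that the balance turned), 0 (13) at 2h, and 0 (3), 0 (1) for rbohE against WT at 4h and 1D. The interactions of gpat4 gpat8 were 7 (19) at 2h, 15 (23) at 4h and 1 (2) at 12h, with 8 (18) at 1D and 7 (14) at 3D from 2h, and those of rbohE 3 (5) at 4h and 7 (4) at 5D. Steps in WT were 5 (8) from 2h to 4h, 1 (5) from 4h to 6h, 3 (0) from 2D to 3D, 3 (0) from 3D to 4D and 21 (13) from 4D to 5D. DESeq2 gave 2 (0) for rbohE against WT at 2h, 5 (3) at 4h, 8 (4) in the interaction of gpat4 gpat8 at 3D, 5 (3) and 11 (4) in those of rbohE at 2h and 5D, and 3 (0) from 2D to 3D. RLE moved the median log2 fold change of all genes by -0.067 to 0.126. It gave 8 (4) in the interaction of gpat4 gpat8 at 3D, and no filter 0 (1) for rbohE against WT at 1D. Counts divided by their spacing gave 8 (4) in the interaction of rbohE at 5D and 3 (0) from 2D to 3D. The replicate block gave 2 (0) from 2D to 3D and moved no other count of called members by over 1.5 times.

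With each library left out in turn, the counts ran, in WT against 0h, from 5 to 8 (5) at 12h, 7 to 11 (7) at 18h and 9 to 21 (15) at 1D. In gpat4 gpat8 against its 0h they ran from 13 to 26 (22) at 4h and 2 to 7 (2) at 12h. Against WT they ran in gpat4 gpat8 from 5 to 13 (8) at 0h, 2 to 16 (13) at 2h, 2 to 4 (2) at 12h and 0 to 1 (0) at 3D, and in rbohE from 0 to 4 (3) at 4h and 0 to 1 (1) at 1D. Interactions of gpat4 gpat8 ran from 10 to 21 (19) at 2h, 2 to 8 (2) at 12h, 10 to 21 (18) at 1D, 6 to 11 (6) at 2D, 3 to 9 (4) at 3D and 3 to 16 (14) at 3D from 2h, and those of rbohE from 2 to 6 (3) at 2h, 3 to 8 (5) at 4h, 3 to 11 (8) at 1D, 2 to 8 (4) at 5D and 0 to 1 (0) at 3D from 2h. Steps ran from 3 to 6 (5) from 4h to 6h, 1 to 4 (3) from 12h to 18h, 4 to 12 (9) from 18h to 1D and 5 to 12 (13) from 4D to 5D. Without WT 0h replicate 3 the fold changes of 3 called values turned: MCM2 in WT 5D against 0h to 0.084 (complete fit -1.03, range over libraries left out -1.41 to 0.084), MCM7 in WT 5D against 0h to 0.051 (-1.16, range -1.54 to 0.051), and MCM7 in gpat4 gpat8 against WT at 0h to 0.091 (-1.12, range -1.71 to 0.091). Of 767 calls of single members, 750 were kept with DESeq2, 750 with RLE, 753 with spacing, 742 without a filter, 759 with the block and 612 with only the groups fitted. The cause of these changes was not tested. Low counts limit the genes at the floor: of 644 member calls between 2 groups, 55 had 1 group there and 4 both.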
